A study of Mus musculus with 6 samples.

Results

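Eosinophils are granulocytes whose granules hold a few very abundant basic proteins, and the genes of those proteins are described here in RNA of CD4+CD25+ regulatory T cells (Treg). The set was made of 8 probe sets out of 22626 on the array that were not controls. Of these, 3 (1421802_at, 1422411_s_at and 1449846_at) were chosen by ID as probe sets for eosinophil-associated ribonucleases, which the platform annotation used here does not list, so no single gene is named for them. The other 5 were all probe sets of Prg2, Epx, Prg3, Il5ra and Ccr3, 1 each. The members were chosen on values, with the difference between the groups in view, so that difference is given for its members as a description and was not tested.

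The study compared Treg separated magnetically from Mbd2-/- mice, which lack a protein that binds methylated DNA, with Treg of wild-type mice, all on the Balb/c background. Each group had 3 samples, described by the submitters as independent, and each sample was hybridised to 1 single-colour array. The sources used here do not state the age or sex of the mice or the purity of the separated cells. Each value is a log2 expression level of 1 probe set.

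Eosinophil granules carry major basic protein (from Prg2), its homologue (from Prg3), eosinophil peroxidase (from Epx) and ribonucleases of the RNase A superfamily, called Ear in the mouse, a family of closely related genes. The granule genes are transcribed mainly while eosinophils mature, under GATA1, C/EBP factors and PU.1. Il5ra encodes the ligand-binding chain of the receptor for interleukin 5, the main growth and survival factor of the lineage. Ccr3 encodes the receptor for eotaxins, chemokines that draw eosinophils into tissue. Ear genes are also transcribed in some monocytes and macrophages, and Ccr3 in basophils.

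The start regions of these genes are shown for the likeness of those of the ribonuclease genes. Those of the other members are shown for a search for lineage motifs, which found none in Epx. Sequences are from RefSeq (GRCm38.p6), whose table held windows of 250 bases before to 50 after the start of 27025 genes. Of the 5 member genes 4 had a window, Prg2 being the exception, and 250 bases before the start are printed. The windows of Epx (chr11:87875537-87875786, minus strand) and Prg3 (chr2:84987965-84988214, plus strand) are shown because both genes were higher in knockout. Those of Il5ra (chr6:106749038-106749287, minus strand) and Ccr3 (chr9:124021721-124021970, plus strand) are shown for contrast. Capitals mark the word AGATAA, the word AGATAG, the word TGATAA and the word TGATAG, which GATA factors bind, on either strand, and a word in capitals may therefore be a reverse complement.
Epx: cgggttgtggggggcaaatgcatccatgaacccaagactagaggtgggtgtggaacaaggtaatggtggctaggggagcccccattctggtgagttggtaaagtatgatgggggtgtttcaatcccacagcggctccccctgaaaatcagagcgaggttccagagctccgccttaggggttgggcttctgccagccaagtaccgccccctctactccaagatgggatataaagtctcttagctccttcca
Prg3: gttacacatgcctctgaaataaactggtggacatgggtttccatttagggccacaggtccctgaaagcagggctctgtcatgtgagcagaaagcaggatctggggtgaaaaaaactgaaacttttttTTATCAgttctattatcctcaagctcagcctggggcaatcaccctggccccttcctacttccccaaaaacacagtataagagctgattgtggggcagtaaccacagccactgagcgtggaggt
Il5ra: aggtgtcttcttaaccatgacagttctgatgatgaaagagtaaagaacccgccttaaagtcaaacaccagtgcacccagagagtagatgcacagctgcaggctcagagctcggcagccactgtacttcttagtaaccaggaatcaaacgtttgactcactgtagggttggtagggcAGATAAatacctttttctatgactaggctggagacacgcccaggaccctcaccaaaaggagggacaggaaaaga
Ccr3: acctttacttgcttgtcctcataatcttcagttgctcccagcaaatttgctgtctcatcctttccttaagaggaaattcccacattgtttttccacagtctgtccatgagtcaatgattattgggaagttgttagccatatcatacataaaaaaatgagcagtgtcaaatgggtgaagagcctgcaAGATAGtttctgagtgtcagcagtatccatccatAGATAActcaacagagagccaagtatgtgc
The 300-base windows held 1 such word in Prg3, 1 in Il5ra and 2 in Ccr3, and none was found in Epx. These words occurred in 29.8% of all 32851 windows. The word TTNNGNAA, searched for C/EBP on both strands, was found in Prg3 and Ccr3 and in 40.7% of all windows. The word GAGGAA, searched for PU.1, was found in Ccr3, in Il5ra after the start and so outside the printed bases, and in 28.3% of all windows. The windows held 5 CpG dinucleotides in Epx, 4 in Il5ra and 1 each in Prg3 and Ccr3, against a median of 7 over all windows.

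The windows of Ear1 (chr14:43819640-43819889, minus strand) and Ear2 (chr14:44102404-44102653, plus strand) are shown as the most alike pair among 7 windows of the family. Probe sequences were not used here, so which transcripts a ribonuclease probe set binds was not tested. Here capitals mark the word TTNNGNAA on either strand, and in both windows they show its reverse complement.
Ear1: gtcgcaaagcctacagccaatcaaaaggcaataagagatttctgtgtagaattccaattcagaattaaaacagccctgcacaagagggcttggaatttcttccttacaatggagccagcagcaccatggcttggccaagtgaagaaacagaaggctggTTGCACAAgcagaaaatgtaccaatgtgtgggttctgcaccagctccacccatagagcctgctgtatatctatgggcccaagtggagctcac
Ear2: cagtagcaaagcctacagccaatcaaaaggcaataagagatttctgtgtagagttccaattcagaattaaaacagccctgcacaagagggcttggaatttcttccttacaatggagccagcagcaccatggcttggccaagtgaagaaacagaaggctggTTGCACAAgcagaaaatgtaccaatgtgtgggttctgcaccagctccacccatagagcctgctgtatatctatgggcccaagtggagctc
Ear1 and Ear2 were identical at 294 of 297 aligned bases of the 300-base windows (99.0%), in a global alignment with free end gaps. Other pairs were less alike. The window of Ear10 matched that of Ear1 at 92.9% of aligned bases, and that of Rnase2a did at 87.6%. The window of Ear14 aligned with that of Ear1 over only 64 bases (92.2% identical). Among 7 windows of the family (Ear1, Ear2, Ear6, Ear10, Ear14, Rnase2a and Rnase2b), each held 0 to 2 CpG dinucleotides, and 1 held a GATA word, that of Ear14. RefSeq gives Ear5 and Ear11 as older names of Rnase2b and Rnase2a.

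Before the members' values, the arrays themselves need a description. Wild-type replicate 3 stood apart, with correlations of 0.749 to 0.767 with the other arrays across probe sets, while pairs without it lay between 0.956 and 0.997. Probe sets with a mean under 5.18 in wild-type replicates 1 and 2 read higher in replicate 3, by a median of 0.52 on the log2 scale over 9785 probe sets. Probe sets with a mean of 7 to 9 there read lower in it, with a median difference of -1.36. The cutoff of 5.18 is the 40% quantile of the means of all probe sets. The files used here gave no detection calls, so a level under this cutoff is called dim. The SD over probe sets was 1.36 on wild-type replicate 3 and 1.78 to 1.83 on the other arrays. A level on that array, and its place against the cutoff, is therefore not directly comparable with the others. Foxp3, the lineage-defining transcription factor gene of Treg, read 8.83, 8.74 and 6.93 in wild type (replicates 1 to 3) and 7.98, 6.62 and 8.17 in knockout. Its log2 difference, knockout minus wild type, was -0.58, and -1.19 without wild-type replicate 3. Both probe sets of Mbd2 were lower in every knockout array than in every wild-type array. The members' differences are given with and without wild-type replicate 3.

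Granule protein and ribonuclease probe sets were higher in each of the 3 knockout arrays than in any wild-type array. The receptor genes were dim in all 6. The groups did not overlap for 6 of the 8 members, all higher in knockout, with 6 arrays and also without wild-type replicate 3. Over all 22626 probe sets the groups did not overlap with knockout higher for 7.21% with 6 arrays and for 15.9% without wild-type replicate 3. Since the set was chosen on this contrast, nothing is read from that comparison. The median log2 difference over all 8 members, knockout minus wild type, was 3.49. It was 3.77 when wild-type replicate 3 was left out, and over all probe sets these medians were -0.03 and -0.01. In bulk RNA, more cells of a type and more RNA per cell cannot be told apart.

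**Figure D1:**
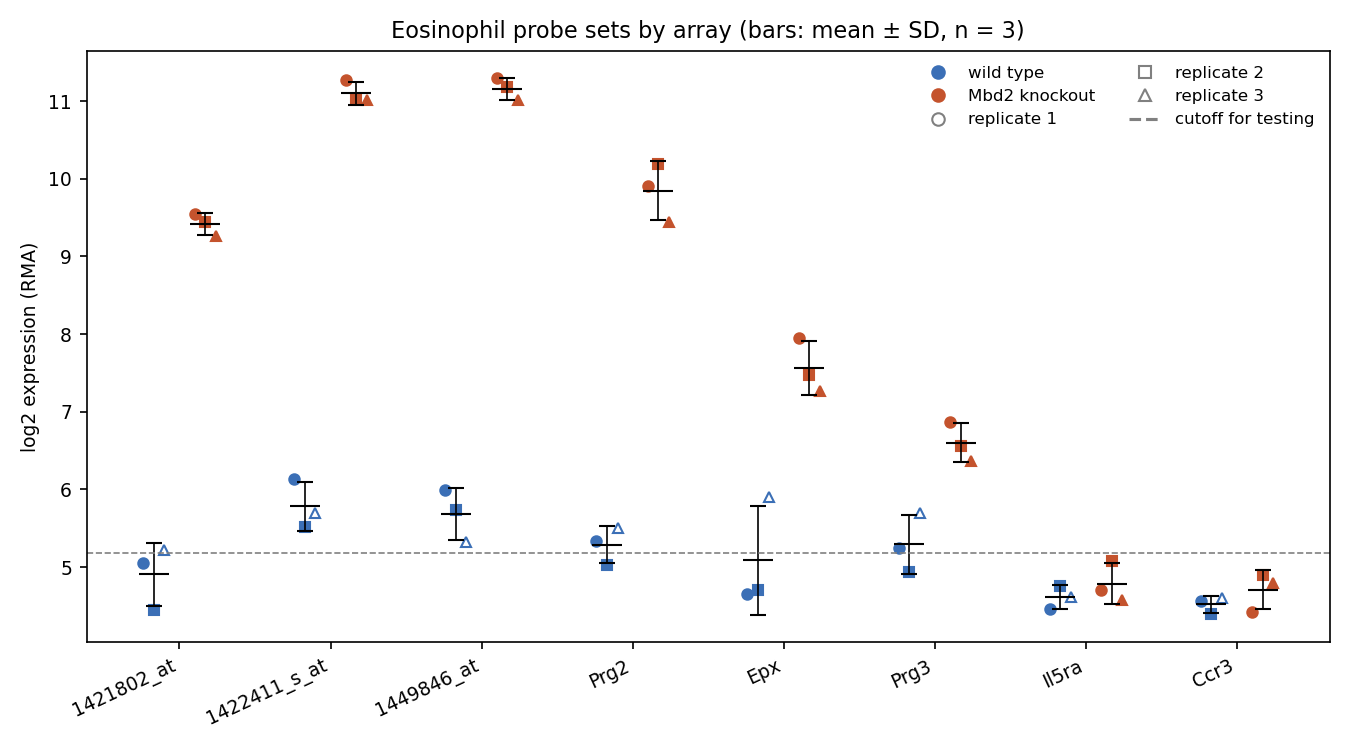
Log2 expression of the 8 probe sets (horizontal axis) on each array (vertical axis), with wild type in blue, Mbd2 knockout in orange, the open triangle for wild-type replicate 3, and black bars for the mean ± SD of 3 arrays. The 3 ribonuclease probe sets and Prg2 lie above 9 in knockout, Epx and Prg3 between 6.37 and 7.95, and Il5ra and Ccr3 under the dashed cutoff of 5.18 in both groups.

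Ribonuclease probe sets, described first, read far higher in knockout. The probe set 1449846_at had levels of 5.99, 5.74 and 5.32 on the wild-type arrays (replicate 1 to replicate 3, the order used throughout) and of 11.29, 11.18 and 11.01 on the knockout arrays. The lowest knockout array lay 5.01 above the highest wild-type array on the log2 scale. Its group means were 5.69 ± 0.34 (SD, n = 3) and 11.16 ± 0.14 (SD, n = 3), a 44.3-fold difference. On the log2 scale this is 5.47, and it became 5.29 when wild-type replicate 3 was left out.

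The probe set 1422411_s_at read 6.13, 5.52 and 5.69 in wild type and 11.27, 11.02 and 11.01 in knockout. Its suffix marks, in the manufacturer's naming, probes shared by several transcripts, so it is not assigned to 1 ribonuclease here. The log2 difference was 5.32, or 39.9-fold, and 5.27 without wild-type replicate 3. The probe set 1421802_at was dim in wild-type replicates 1 and 2 (5.05 and 4.45) and read 5.22 in replicate 3, against 9.54, 9.44 and 9.26 in knockout. Since its wild-type mean of 4.91 was under the cutoff, its fold is a lower bound, with arrays under the cutoff raised to it: at least 18.6-fold. Within each array these 3 probe sets stood between the 19.8th and the 58.4th percentile of all probe sets in wild type and between the 93.8th and the 98.6th in knockout. The 3 knockout arrays lay within 0.28 of each other on each of them.

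Another probe set of the family outside the set, 1422412_x_at, carries the symbol Ear3 in the platform annotation. The suffix marks probes that can bind other sequences as well. It read 4.85, 4.72 and 6.42 in wild type and 7.70, 7.55 and 7.35 in knockout, so the groups did not overlap, and the high wild-type value was that of replicate 3. With 6 arrays the difference of 2.20 ± 0.48 (SE, log2) did not pass the threshold (limma adjusted p = 0.459), while without wild-type replicate 3 that of 2.75 ± 0.13 did (limma adjusted p = 0.0017). Rnase2a and Rnase2b were dim on the 3 knockout arrays, at 4.38 to 4.54 and 4.41 to 4.53. In wild type Rnase2a read 4.27, 4.33 and 6.70 and Rnase2b 4.24, 4.24 and 4.72, in both cases highest in replicate 3. High levels in knockout were thus seen on some probe sets of the ribonuclease family and not on others.

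Major basic protein, the most abundant protein of the crystalline core of the eosinophil granule, comes from Prg2. Its probe set read 5.34, 5.03 and 5.50 in wild type and 9.91, 10.19 and 9.44 in knockout. The group means were 5.29 ± 0.24 (SD, n = 3) and 9.85 ± 0.38 (SD, n = 3), and the log2 difference was 4.56, with a gap of 3.94 between the lowest knockout and the highest wild-type array. Without wild-type replicate 3 the difference was 4.66. Knockout replicate 2 was the highest of the knockout arrays here, while on the 3 ribonuclease probe sets replicate 1 was.

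Eosinophil peroxidase, which makes hypohalous acids from hydrogen peroxide, comes from Epx. It read 4.65, 4.71 and 5.90 in wild type and 7.95, 7.47 and 7.27 in knockout. Wild-type replicate 3 lay 1.21 above the mean of the other wild-type arrays, and it set the wild-type SD of 0.70. The log2 difference was 2.48 with 6 arrays, at least 4.42-fold since the wild-type mean of 5.09 was under the cutoff, and 2.88 without wild-type replicate 3.

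Prg3, the homologue of Prg2, showed the smallest difference of the granule genes. It read 5.24, 4.94 and 5.70 in wild type and 6.87, 6.56 and 6.37 in knockout. The gap between the groups was 0.67, and 1.13 when wild-type replicate 3 was left out. The corresponding log2 differences were 1.31 and 1.51.

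Both receptor genes stayed dim. Il5ra read 4.46, 4.76 and 4.62 in wild type and 4.70, 5.08 and 4.57 in knockout, and its highest value, in knockout replicate 2, was under the cutoff. Ccr3 read 4.56, 4.40 and 4.60 in wild type and 4.42, 4.90 and 4.80 in knockout. The groups overlapped for both, with log2 differences of 0.17 and 0.18 (0.17 and 0.23 without wild-type replicate 3), smaller than the SD of the knockout arrays (0.26 and 0.25). No fold is given, since both groups were under the cutoff. Siglecf, a lectin gene that marks mouse eosinophils, was dim as well, at 4.14, 4.17 and 4.33 in wild type and 4.48, 4.97 and 4.44 in knockout. For Siglecf the knockout arrays lay above the wild-type arrays, by a mean log2 difference of 0.42, or 0.48 without wild-type replicate 3. The other markers on the short eosinophil list, Prg2, Epx and Prg3, were above the cutoff in every knockout array. Other surface genes linked to eosinophils were dim in knockout in some cases and not in others, a contrast drawn after the values were seen. Cysltr1, Cysltr2, Ptgdr2 and Hrh4 were dim in every knockout array. Adgre1 and Pirb, shared with macrophages and other myeloid cells, were not dim there. Adgre1, which encodes the F4/80 antigen, read 5.84, 6.77 and 5.69 in knockout, and the inhibitory receptor gene Pirb 6.40, 7.60 and 6.40, above their wild-type arrays. From the same list, Adgre4, Cd300lf, Alox5ap, Ccl6 and Ccl9 were not dim in knockout either and lay above their wild-type arrays. The largest log2 difference of that list was 2.98, for Alox5ap. The list had 21 genes on the array, and of its 16 tested genes 12 were higher and 4 lower with 6 arrays. The genes named here do not stand for it.

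Within the knockout group the ribonuclease probe sets varied about as much as the median tested probe set. The highest array differed among the members and among the gene lists. The SD among knockout arrays was 0.14 to 0.15 for the ribonuclease probe sets and 0.26 to 0.38 for Prg3, Epx and Prg2, against a median of 0.15 over all 13575 tested probe sets. That median was 0.16 over tested probe sets with a knockout mean above 9, and 0.25 over the 8 members. The knockout arrays lay within 0.28 of each other on each ribonuclease probe set, so their order there rests on small differences. Knockout replicate 1 was the highest for 5 members (the 3 ribonuclease probe sets, Epx and Prg3) and replicate 2 for 3 members (Prg2, Il5ra and Ccr3). Over all tested probe sets replicate 1 was the highest for 33.3% and replicate 2 for 30.5%. Of 13 tested monocyte and macrophage genes, 13 were highest in knockout replicate 2. C1qa, a complement gene of macrophages, had knockout levels of 6.95, 8.89 and 6.93. Mpo, the myeloperoxidase gene of neutrophil precursors, read 8.36, 6.82 and 7.51, and Mcpt8, a basophil protease gene, 8.78, 7.95 and 7.85, both highest in replicate 1 as Epx was. These 2 genes were picked after their values were seen. Of 13 tested neutrophil granule genes 3 were highest in replicate 1 and 10 in replicate 2, and of 6 tested mast cell and basophil genes 2 and 3. Of 16 tested eosinophil surface, trafficking and lipid mediator genes 1 was highest in replicate 1 and 15 in replicate 2. Of 12 tested regulators of the eosinophil lineage 2 were highest in replicate 1, 9 in replicate 2 and 1 in replicate 3. There is 1 value per array, so no test of these orders was made.

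**Figure D2:**
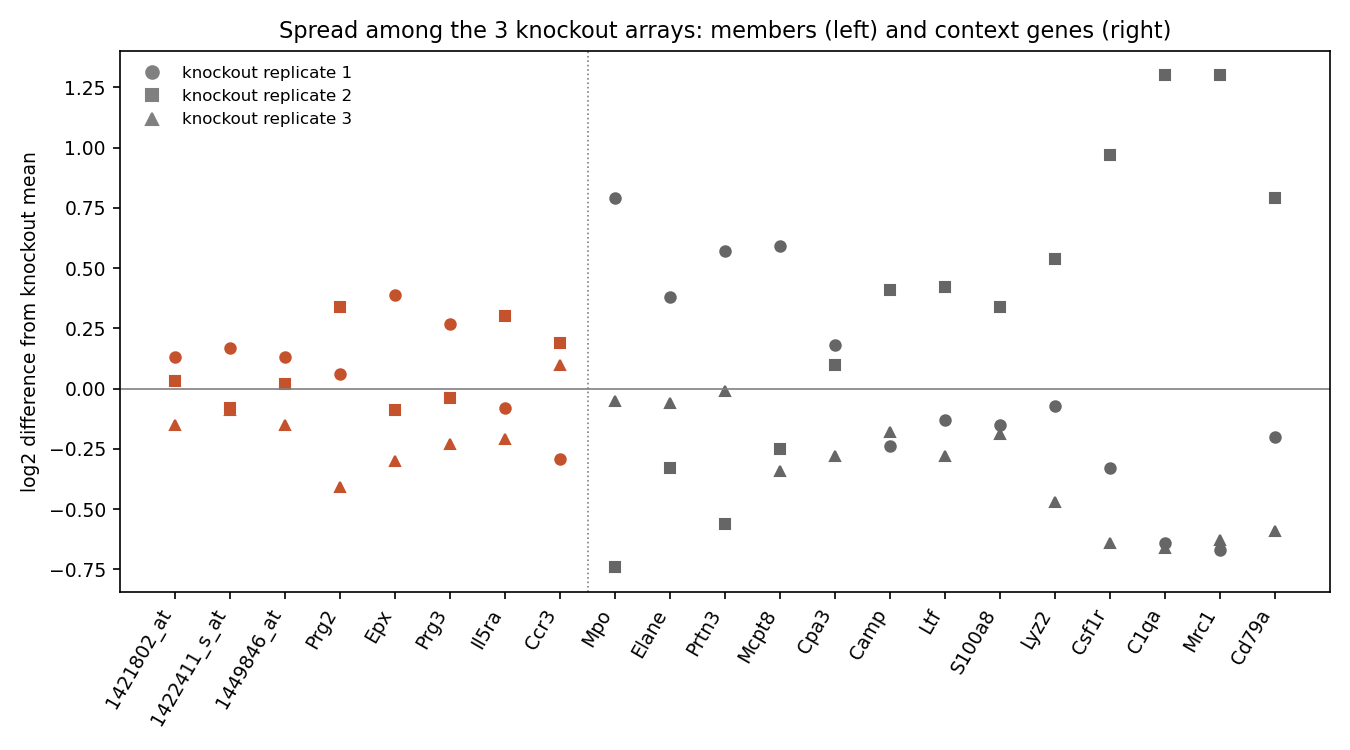
Difference of each knockout array from the knockout mean on the log2 scale (vertical axis) for the 8 members (orange, left) and 13 genes of other cell types (grey, right), the latter chosen after their values were seen; circles, squares and triangles are knockout replicates 1, 2 and 3. Replicate 2 lies at 1.30 for C1qa and at -0.09 for Epx, while replicate 1 is the highest for Epx, Prg3, Mpo and Mcpt8.

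Other genes of eosinophil biology were taken from 6 lists with 93 genes, of which 66 were on the array and 45 bright enough to be tested with limma. Brightness was the mean over all 6 arrays, so a gene dim in 1 group could pass by its level in the other. Adgre4 (wild-type mean 4.56) passed by its knockout level, and Ptgdr2 (knockout mean 4.93) by its wild-type level. Genes dim in both groups were not tested, so the counts and medians below depend on this filter. None passed the threshold with 6 arrays, in either direction (limma, adjusted p under 0.05), where 0.103% of all tested probe sets were called higher and 0.0% lower. At an unadjusted p under 0.05 there were 15 higher and 1 lower, against 3.48% and 0.597% of all tested probe sets. With a trended and robust variance model the count was 0 as well. Without wild-type replicate 3, 3 of the 45 genes passed the threshold as higher and 0 as lower, against 0.67% of tested probe sets called higher and 0.729% lower. These were Ear3 (above), Alox15 and Fcer1g. The 45 genes had a median log2 difference of 0.66, against 0.15 over all tested probe sets. When wild-type replicate 3 was left out these medians were 0.62 and -0.06. These counts come from the same arrays as the choice of the members and do not stand as separate support.

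Genes of eosinophil surface, trafficking and lipid mediators made the largest of these lists, with 16 tested genes, of which 12 were higher with 6 arrays and 12 without wild-type replicate 3. Alox15, a lipoxygenase gene of eosinophils and some macrophages, read 4.89, 5.03 and 6.73 in wild type and 6.24, 6.76 and 6.23 in knockout. With wild-type replicate 3 the groups overlapped (log2 difference 0.86, SE 0.52, limma adjusted p = 0.829), and without it Alox15 rose by 1.45 (SE 0.19, limma adjusted p = 0.0324). Fcer1g, the shared signalling chain of Fc receptors in many myeloid cells, read 6.14, 6.44 and 5.50 in wild type and 8.41, 9.15 and 8.19 in knockout. Its log2 difference was 2.56 with 6 arrays (limma adjusted p = 0.14) and 2.29 without wild-type replicate 3 (limma adjusted p = 0.0323).

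Of 12 tested regulators of the lineage, 9 were higher with 6 arrays and 10 without wild-type replicate 3, and 0 passed in either fit. Spi1, which encodes PU.1 and had the smallest p, read 5.40, 5.65 and 6.33 in wild type and 7.22, 8.06 and 6.92 in knockout. Its log2 difference was 1.61 (limma adjusted p = 0.584), and 1.87 without wild-type replicate 3 (limma adjusted p = 0.0603). Gata1, the factor on which eosinophils depend, read 7.12, 6.88 and 6.18 in wild type and 6.75, 6.01 and 6.82 in knockout, with groups that overlapped and a log2 difference of -0.20 (limma adjusted p = 0.855), and of -0.47 without wild-type replicate 3 (limma adjusted p = 0.34). Gata1 was 1 of 3 regulators that were lower with 6 arrays. It falls outside the rule for naming and was chosen after its values were seen. The C/EBP genes Cebpa and Cebpb, also named outside the rule, were higher in every knockout array than in any wild-type array. Their log2 differences were 0.54 and 1.48 (limma adjusted p = 0.829 for both). Without wild-type replicate 3 they were 0.62 and 0.72 (limma adjusted p = 0.215 and 0.379).

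Receptor chains and signalling genes for interleukin 5, interleukin 3 and GM-CSF had 8 tested genes, of which 5 were higher, or 3 when wild-type replicate 3 was left out. Csf2ra, the ligand-binding chain for GM-CSF, had the smallest p. It read 5.36, 5.53 and 5.12 in wild type and 6.56, 6.99 and 6.29 in knockout, a log2 difference of 1.27 (limma adjusted p = 0.415), and of 1.16 without wild-type replicate 3 (limma adjusted p = 0.0609). Csf2rb, the chain shared by all 3 receptors, read 5.34, 5.54 and 5.06 in wild type and 6.64, 7.52 and 6.33 in knockout (log2 difference 1.51, limma adjusted p = 0.548, and 1.39 without wild-type replicate 3, limma adjusted p = 0.106). It was also chosen after its values were seen. Il3ra, the ligand-binding chain for interleukin 3, read 6.03, 5.96 and 6.89 in wild type and 6.02, 5.91 and 5.82 in knockout, and its log2 difference was -0.37, or -0.08 without wild-type replicate 3. Neither difference was past the threshold (limma adjusted p = 0.829 and 0.684), and Il3ra was named after its values were seen.

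Peroxidase and proteoglycan genes had 2 tested members, Mpo and Srgn. Mpo had a log2 difference of 2.37 (limma adjusted p = 0.286), and of 2.33 without wild-type replicate 3 (limma adjusted p = 0.0699). Srgn, which encodes the granule proteoglycan serglycin that T cells also make, differed by 0.15 (limma adjusted p = 0.84). Without wild-type replicate 3 its limma adjusted p was 0.991. Ccr1, a chemokine receptor gene with the smallest p among CCR3 ligands and neighbouring receptors, read 4.60, 5.07 and 4.57 in wild type and 5.81, 6.93 and 5.83 in knockout. Its log2 difference was 1.44 (limma adjusted p = 0.62), and 1.35 without wild-type replicate 3 (limma adjusted p = 0.129). The eotaxin gene Ccl11 was dim in all arrays.

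**Figure D3:**
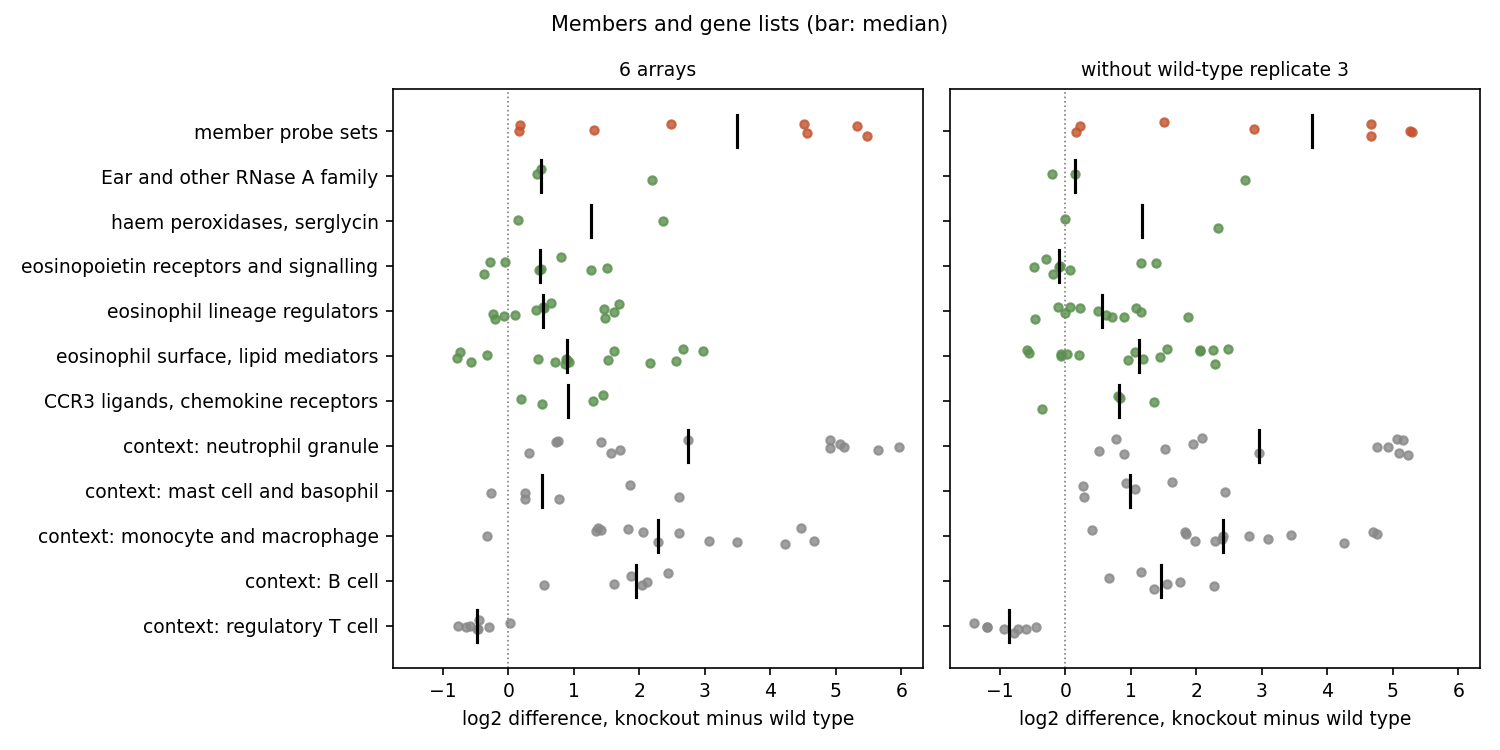
Log2 difference, knockout minus wild type (horizontal axis), for the 8 members (orange), the tested genes of the 6 eosinophil lists (green) and of 5 lists of other cell types (grey), with 6 arrays (left) and without wild-type replicate 3 (right); black bars are medians, and points are scattered vertically only to separate them. The neutrophil list has medians of 2.74 and 2.95, and the regulatory T cell list -0.47 and -0.86.

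Marker lists of other cell types differed between the groups as well, with few genes past the threshold outside the neutrophil and macrophage lists. Over all tested probe sets 0.103% were called higher and 0.0% lower with 6 arrays, and 0.67% and 0.729% without wild-type replicate 3. The share of all tested probe sets that read higher was not counted. Counts of higher genes in these lists and the eosinophil lists are therefore only a description. The filter bears on them as well: Chil3, Mmp8 and F13a1, with wild-type means of 4.66, 4.86 and 4.94, passed it by their knockout levels. All 13 tested neutrophil granule genes were higher in knockout, 4 of them past the threshold with 6 arrays (limma: Camp, Ngp, Ltf and Lcn2) and 8 without wild-type replicate 3 (also Mmp8, Mmp9, S100a8 and S100a9), and their mean level was 5.53 to 6.24 in wild-type and 8.83 to 9.31 in knockout arrays. Of 13 tested monocyte and macrophage genes, 12 were higher with 6 arrays and 13 without wild-type replicate 3, with mean levels of 5.12 to 6.14 and 7.62 to 8.92. Lyz2, Lyz1, F13a1 and Chil3 passed with 6 arrays, and Csf1r as well without wild-type replicate 3. Of 6 tested mast cell and basophil genes 5 were higher with 6 arrays, with mean levels of 5.30 to 5.88 and 6.14 to 6.59, while Ms4a2, the beta chain of the IgE receptor, was dim in all arrays. None of the 6 passed with 6 arrays, and Mcpt8 and Cpa3 did without wild-type replicate 3. All 6 tested B cell genes were higher, with mean levels of 5.44 to 6.77 and 7.54 to 8.17. None passed with 6 arrays and 1, Spib, did without wild-type replicate 3. Of 8 tested regulatory T cell genes, 7 were lower (8 when wild-type replicate 3 was left out), with mean levels of 8.32 to 9.69 and 8.26 to 9.09. None passed with 6 arrays, and Nrp1 passed, lower, without wild-type replicate 3. The part of these cell types in the members' differences was not tested.

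By likeness to Prg2, the nearest of 8187 other named genes were Chil3, Ifitm6, Lyz2, Lcn2 and Lyz1. Likeness was the root mean square difference of the log2 values after each gene was centred on its own mean over the 6 arrays, and it was 0.43 for Chil3, whose product resembles chitinases and is made by myeloid cells. It was 0.46 for Ifitm6 and for Lyz2, 0.47 for Lcn2 and 0.48 for Lyz1. Over the 5 arrays without wild-type replicate 3 the same 5 genes were the nearest, from 0.40 for Lcn2 to 0.50 for Lyz1 and Lyz2. The member nearest to Prg2 was the ribonuclease probe set 1421802_at, at 0.20, closer than any of these genes. The ribonuclease probe set 1422411_s_at lay at 0.47, within the range of these genes, and 1449846_at at 0.57, beyond it. Without wild-type replicate 3 they lay at 0.39 and 0.36. Over the 6 arrays Epx lay at 1.11, Prg3 at 1.64, Ccr3 at 2.20 and Il5ra at 2.21. The measure takes in the size of a difference as well as its shape, so Epx and Prg3, with smaller differences, lie farther off. The members were chosen with that difference in view.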

How the data were processed

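The deposited table holds log2 expression levels, made by the authors with RMA (background correction, quantile normalization and probe set summary), per the submitters' processing notes. The sources used here do not say which arrays were normalized jointly. Wild-type replicate 3 had another spread of values (SD 1.36) than the other arrays (SD 1.78 to 1.83). Groups came from the sample titles. Of 22690 probe sets, 64 controls were left out. Symbols came from the platform annotation, updated by gene ID through RefSeq (GRCm38.p6): 20380 probe sets had 1 symbol, 691 several and 1555 none. Probe sets in the lowest 40% by mean level over the 6 arrays (log2 under 5.18) were left out of tests. For the other 13575, limma 3.58.1 (R 4.3.3) was used, with group as the only term, no variance trend, Benjamini-Hochberg adjustment over all of them and a threshold of 0.05. A gene was represented by its brightest probe set. The fit was also run on simulated data, and no outcome of that run is given here. Nothing is read from it about the fit that includes wild-type replicate 3, the array that stood apart. The number of arrays limits the precision.

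The members, the 11 gene lists (119 of 152 genes on the array) and the tests were chosen with earlier results of these data known. Named were all members, list genes past the threshold in either fit, the gene with the smallest p of a list without one, and the 5 genes most like Prg2. Siglecf came from the short eosinophil marker list. Rnase2a, Rnase2b, Srgn, Ccl11, Ms4a2, C1qa, Adgre1, Pirb, Cysltr1, Cysltr2, Ptgdr2, Hrh4, Gata1, Csf2rb, Il3ra and the genes of the neighbour check were named outside this rule, after their values were seen. So were Adgre4, Cd300lf, Alox5ap, Ccl6, Ccl9, Cebpa and Cebpb. Alternatives were the filter, the variance model, a further normalization, a replicate block, the mean of probe sets and arrays left out. Same-numbered arrays correlated at 0.16, -0.12 and -0.137 in their deviations from group means. Wild-type replicate 3, which stood apart, enters the wild-type mean and so all wild-type deviations. These values therefore cannot show or exclude pairing. The sample titles number the arrays but name no pairs, and none were taken.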

Additional observations from a re-analysis of the deposited data

How the results depend on the processing

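Every member kept a positive log2 difference under all 9 alternatives tried for it, and none moved by more than its spread between replicates. The ranges were 5.28 to 5.62 for 1449846_at, 4.39 to 4.76 for Prg2, 2.26 to 2.93 for Epx, 1.13 to 1.53 for Prg3 and 0.02 to 0.27 for Il5ra. The members' median was 3.28 to 3.77 with 1 array left out. On the percentile scale within arrays, Prg2 differed by 53.8 points, Prg3 by 22.3 and Ccr3 by 9.88.

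Counts of calls depended on the arrays. Of all tested probe sets 14 were called higher and 0 lower with 6 arrays. Without the filter 8 were higher, after a further quantile normalization 9 were higher and 1 lower, and with a trended and robust variance 1 was lower. With 1 array left out, 0 to 91 were higher and 0 to 99 lower. The highest counts were without wild-type replicate 3, and leaving out knockout replicate 1, 2 or 3 gave 0, 0 or 3 higher. The eosinophil-related genes called higher ranged from 0 to 3. When wild-type replicate 3 and knockout replicate 2 were left out together, which leaves 2 arrays a group, 1136 probe sets were called higher and 1401 lower, and 22 eosinophil-related genes higher and 3 lower. The causes were not tested. With the replicate block, which the check of pairing could neither bear out nor exclude, 10 probe sets were higher. Signal near background limits Il5ra, Ccr3 and Siglecf: a low level there cannot be told from none.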

Other observations

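The chromosomal neighbours of the members were looked at after the data were seen, taking 3 protein-coding genes on each side in RefSeq order (GRCm38.p6). Prg2 and Prg3 are direct neighbours, and Epx lies 3 genes from Mpo and 2 from the lactoperoxidase gene Lpo. Of 24 distinct neighbours that are not members, 15 were on the array and 7 were tested. With 6 arrays 0 passed the threshold (limma), 2 had an unadjusted p under 0.05 (against 4.08% of all tested probe sets), and 5 of the 7 were higher in knockout. Without wild-type replicate 3, 0 passed, 3 had an unadjusted p under 0.05 (against 21.6%), and 4 were higher and 3 lower. Crbn turned from 0.30 to -0.60 and Ccr2 from 0.51 to -0.36. Slc43a3, on the other side of Prg2, differed by 0.14 on the log2 scale (limma adjusted p = 0.839). P2rx3, on the other side of Prg3, was dim, with means of 4.68 in wild type and 4.83 in knockout. Lpo was dim in knockout at 4.44 to 4.55, while Mpo read between 6.82 and 8.36 there.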
